A study of Mus musculus with 16 samples.

Results

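The chromatin of 2 genes of nucleoside handling, Slc28a1 and Cda, was followed through intestinal development and differentiation by the acetylation of histone H3 at lysine 27 (H3K27ac). The members were the H3K27ac peaks overlapping 2 fixed mm9 windows, chr7:88240000-88330000 for Slc28a1 and chr4:137875000-137935000 for Cda. They numbered 132 of the 369142 peaks in 8 libraries, with 35 at Slc28a1 and 97 at Cda. The loci were chosen by covered length in these same lists: Slc28a1 because enterocytes had long peaks there and intestinal stem cells (ISC) had none, and Cda because a stretch of it was covered in adult cells and not in embryonic cells. Those differences are therefore described here and carry no test. The assignment of each window to its gene comes with the choice of the loci. No mm9 annotation was used here, so no peak is placed at a promoter, exon or intron, and a peak in a window may belong to a neighbouring gene. In the RefSeq gene order on GRCm38.p6, Slc28a1 lies between Alpk3 and Pde8a, and Cda between Pink1 and Fam43b.

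The series profiled small-intestinal epithelium of mice on a mixed C57BL/6 CD1 background by chromatin immunoprecipitation and sequencing, with 2 libraries in each of 4 groups described as biological duplicates. The embryonic groups were epithelium at E12.5 and at E14.5, sorted by the epithelial surface protein EpCAM, with cells bearing CD31 (endothelium) or CD45 (leukocytes) left out. The adult groups were enterocytes and ISC of Lgr5EGFP-Cre-ERT males at postnatal day 60, an allele that places green fluorescent protein under the stem cell gene Lgr5. ISC were sorted for high fluorescence. Enterocytes were sorted with the same EpCAM, CD31 and CD45 gate as the embryonic cells, a gate that does not separate other epithelial types. The identity of the sorted cells could not be checked against marker genes without an mm9 annotation.

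H3K27ac lies on the nucleosomes of active promoters and enhancers, and long stretches of it often mark genes that a cell type uses strongly. Slc28a1 encodes the concentrative nucleoside transporter CNT1, which carries pyrimidine nucleosides such as uridine and cytidine into the cell together with sodium and is known from the apical membrane of absorptive epithelia. Cda encodes cytidine deaminase, the pyrimidine salvage enzyme that turns cytidine and deoxycytidine into uridine and deoxyuridine.

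The annotated promoters of both genes are shown to give the sequence at which each gene starts. They were taken from RefSeq on the build GRCm38.p6, from 250 bases before to 50 after the gene start. They cannot be placed among the mm9 peaks, because positions were not converted between builds. The Slc28a1 promoter is at chr7:81114549-81114848 on the plus strand and the Cda promoter at chr4:138367906-138368205 on the minus strand, both on GRCm38.p6 and written 5′ to 3′ along the gene. Capitals mark matches to the motifs CCGCCC (GC box), CACCC (the box bound by KLF factors) and CAAAG (a partial HNF4 site).
Slc28a1: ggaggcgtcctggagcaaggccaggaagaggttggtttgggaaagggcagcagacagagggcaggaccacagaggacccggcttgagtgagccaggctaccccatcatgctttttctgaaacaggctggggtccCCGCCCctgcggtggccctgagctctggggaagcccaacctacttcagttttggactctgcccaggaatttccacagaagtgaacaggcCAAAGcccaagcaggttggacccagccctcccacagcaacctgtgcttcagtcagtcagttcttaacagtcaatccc
Cda: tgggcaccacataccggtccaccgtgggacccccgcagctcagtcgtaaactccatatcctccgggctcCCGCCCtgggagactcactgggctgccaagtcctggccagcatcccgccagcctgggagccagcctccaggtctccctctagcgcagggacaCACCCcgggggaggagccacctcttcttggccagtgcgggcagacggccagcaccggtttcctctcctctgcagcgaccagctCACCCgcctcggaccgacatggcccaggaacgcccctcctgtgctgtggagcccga
The Slc28a1 sequence had 58.7% G and C with 4 CpG dinucleotides, and the Cda sequence 68.3% with 18, beside medians of 52.7% and 7 over all 32851 promoters of the table. Searched on both strands, the Slc28a1 promoter held CCGCCC at bases 135 to 140 and CAAAG at bases 224 to 228, counted from 1 at the 5′ end. The Cda promoter held CCGCCC at bases 70 to 75 and CACCC at bases 162 to 166 and 245 to 249. None of these matches overlapped another. Such matches are common: 35.7% of all promoters held CCGCCC, 57.5% CACCC and 53.9% CAAAG. The CDX motif TTTAT was in neither window and in 40.0% of all promoters. The motif GATAA of the GATA factors was in neither and in 25.4% of all. The HNF1 motif GTTAAT was in neither and in 7.1% of all. The TATA box, searched as TATAAA, was in neither and in 13.6% of all.

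The libraries had 34.6 to 42.2 M total ChIP tags, except E14.5 replicate 2 with 54.6 M. The lists held 35614 to 52510 peaks covering 38.8 to 76.1 Mb, with the smallest totals in enterocytes (38.8 Mb in each library) and 51.2 and 76.1 Mb in ISC. A locus without a peak had no stretch past the authors' q-value threshold of 0.05, which does not show that the mark was absent.

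At Slc28a1, H3K27ac peaks covered a long block in enterocytes, a few short positions in the embryo and nothing in ISC. At E12.5 the peaks covered 1.65 and 2.14 kb of the 90 kb window, and at E14.5 3.82 and 3.09 kb. In the adult they covered 11.7 and 11.6 kb in enterocytes, against 0 kb in both ISC libraries. The enterocyte libraries stood above all others and their replicates differed little: E12.5 averaged 1.89 ± 0.347 kb, E14.5 averaged 3.45 ± 0.515 kb, enterocytes averaged 11.7 ± 0.0778 kb and ISC had 0 kb (SD, n = 2 each). The number of peaks did not order the groups in the same way, with 4 and 5 at E12.5, 7 and 6 at E14.5, 8 and 5 in enterocytes and none in ISC. In sorted bulk cells, fewer cells carrying the mark and less mark per cell cannot be told apart.

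**Figure D1:**
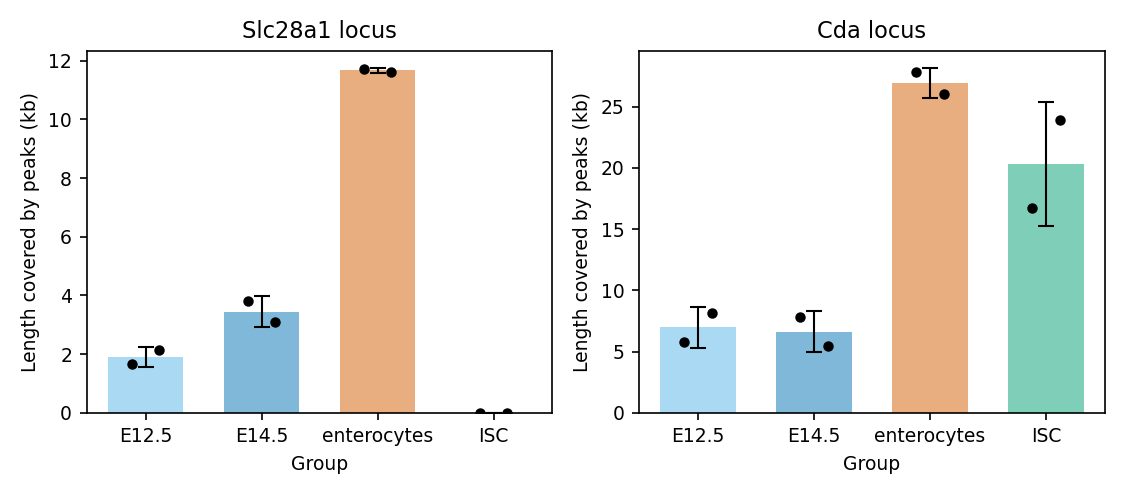
Length covered by H3K27ac peaks (kb, y axis) in the Slc28a1 and Cda windows for each group (x axis); points are libraries and bars are means of 2 libraries, with SD. At Slc28a1 both enterocyte libraries were near 11.7 kb and both ISC libraries at 0, while at Cda the adult libraries lay between 16.7 and 27.8 kb and the embryonic ones between 5.44 and 8.19 kb.

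The enterocyte block at Slc28a1 ran over 15.9 kb, chr7:88254349-88270296, and in 1 of the 2 libraries its centre was a single long peak. In replicate 2 this peak was chr7:88256872-88263703, 6832 bp long with its summit at 88259799. Its length exceeded that of 99.5% of the peaks in the same list. In replicate 1 the same stretch was split into peaks of 1679 bp (chr7:88256867-88258545) and 4996 bp (chr7:88258735-88263730), the second with its summit at 88259877. Their lengths were at the 82.6th and 98.3rd percentiles of that list. Long enterocyte peaks were a reason for the choice of the locus, so these ranks are described only. A further peak lay on the lower side in each library, 2340 bp and 2275 bp long, and smaller ones continued to 88270296. Of the 12545 bp covered in either enterocyte library, 10805 bp (86.1%) were covered in both. Of those 10805 bp, 89.4% were covered in no embryonic library and 3.46% in both E14.5 libraries.

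A short E14.5 peak sat inside that block, at the summit of the long enterocyte peak. It covered chr7:88259281-88260020 (740 bp, summit 88259761) in replicate 1 and chr7:88259647-88260195 (549 bp, summit 88259854) in replicate 2. The summits of the 2 E14.5 and the 2 enterocyte libraries thus fell within 116 bp of each other. Neither E12.5 library had a peak there. By the authors' −log10 q, the E14.5 peaks ranked at the 51.6th and 46.5th percentiles of their own lists and the enterocyte peaks at the 89.7th and 81.0th of theirs. These ranks describe each list and are not compared between lists.

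E14.5 replicate 1 had 1 more peak inside the block, chr7:88263178-88263408 (231 bp), which replicate 2 did not have. The remaining embryonic peaks lay where enterocytes had none. A second position was held by the E14.5 libraries alone, chr7:88279244-88280323 in replicate 1 and chr7:88279436-88280238 in replicate 2, with summits 24 bp apart. Summits between 88299709 and 88299897, and others between 88303760 and 88304386, were found in all 4 embryonic libraries and in no adult library. All of the 1355 bp covered in both E12.5 libraries were free of peaks in the adult, and 79.0% of them were covered in both E14.5 libraries. No base of the window was covered in all 8 libraries. A last embryonic peak crossed the lower edge of the window, with 0.371 and 0.604 kb inside it at E12.5. Just outside the upper edge, every library had a peak at a distance of 26.99 to 27.3 kb.

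**Figure D2:**
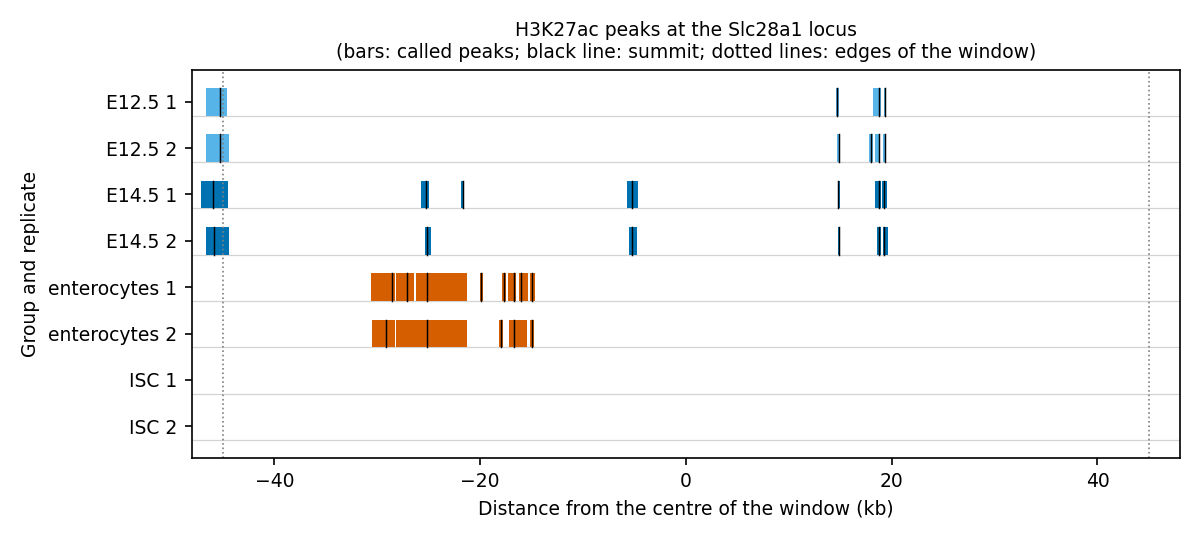
H3K27ac peaks of each library (rows) at the Slc28a1 window by distance from its centre (kb, x axis); bars span the peaks, black lines are summits and dotted lines are the window edges. The long enterocyte block contains the short E14.5 peak at its central summit, and both ISC rows are empty.

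The change between the embryonic stages was not used to choose the loci and was tested over 30733 windows of 20 kb with limma and Benjamini-Hochberg adjustment. Genome-wide, 14.3% of windows were called higher at E14.5 and 11.7% lower. Over the windows that meet either locus, 2 of 9 were called higher and 1 of 9 lower, counts that are near those shares and are no result about these genes in themselves. Among the 9, chr4:137900001-137920000 was chosen as bare in the embryo, so it could not be called. Both of the higher windows were at Slc28a1. On chr7:88260001-88280000, peaks covered 1.01 and 0.760 kb at E14.5, against 0 kb in both E12.5 libraries. The log2 difference was 1.35 ± 0.11 (SE, adjusted p = 0.000637), a size that depends on the 500 bp added before the log. On chr7:88240001-88260000 E14.5 libraries averaged 1.07 ± 0.187 kb and E12.5 libraries 0.488 ± 0.165 kb (SD, n = 2 each). The log2 difference was 0.52 ± 0.11 (SE, adjusted p = 0.0163). Both ISC libraries had 0 kb on these 2 windows, which comes with the choice of the locus, and so added no spread to the shared fit. The E12.5 libraries added none on the first. The SE and p-values at Slc28a1 may therefore be too small. The groups did not overlap in either window. Most of the E14.5 length on the first came from the peaks at chr7:88279244-88280323 (replicate 1) and chr7:88279436-88280238 (replicate 2), where enterocytes had none. The E14.5 peak at the enterocyte summit crossed the edge at 88260000 and lay mostly on the second, so the 2 calls share that peak. Both calls rested on peaks of modest score: with peaks of −log10 q of at least 10 alone, the differences were 0.02 (adjusted p = 1) and 0.28 (adjusted p = 0.384). The second call was also lost without scaling (adjusted p = 0.0528) and without E14.5 replicate 1 (adjusted p = 0.0574).

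At Cda, peaks covered both adult cell types more widely than the embryo, and the added length lay mainly in 1 stretch that the embryo left bare. Of the 60 kb window, the E12.5 peaks covered 5.82 and 8.19 kb and the E14.5 peaks 7.84 and 5.44 kb. They covered 27.8 and 26.1 kb in enterocytes and 16.7 and 23.9 kb in ISC. All 4 adult libraries exceeded all 4 embryonic ones, with 23.6 ± 4.87 kb in the adult and 6.82 ± 1.39 kb in the embryo (SD, n = 4 each). Within the adult the groups did not overlap either, with 26.9 ± 1.23 kb in enterocytes and 20.3 ± 5.07 kb in ISC (SD, n = 2 each). These means include the chosen stretch chr4:137900001-137920000, with 15.0 kb in enterocytes and 7.25 kb in ISC. Elsewhere the order varied. On chr4:137880001-137900000 the means were 4.05 kb in enterocytes and 6.49 kb in ISC. On chr4:137920001-137940000 they were 7.97 and 6.62 kb. The embryonic stages overlapped: E14.5 averaged 6.64 ± 1.69 kb and E12.5 averaged 7.00 ± 1.67 kb (SD, n = 2 each). Scaled to equal total covered length, the enterocyte mean was 37.3 kb, because enterocytes had the smallest totals.

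The strongest peak of the window stood at the same place in every library, and 2 more positions were also held by all 8. At summit A, between 137881868 and 137882047, each library had its most significant peak of the window, 1097 to 3418 bp long. Summit B, between 137889532 and 137889899, had short peaks of 416 to 1035 bp. Summit D, between 137923610 and 137923754, had summits within 144 bp of each other in the 8 libraries, but its peaks differed widely in length. They were 649 and 907 bp long at E12.5 and 867 and 701 bp at E14.5. In the adult they were 5873 and 5677 bp long in enterocytes, against 1950 and 3793 bp in ISC. At summit B the order was another one: both enterocyte peaks (566 and 416 bp) were shorter than all others. At summit A the enterocyte lengths (1686 and 1097 bp) overlapped those of every other group.

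Other positions joined at different stages. Summit C, between 137899072 and 137899505, had no peak in E12.5 replicate 1 and a peak of 301 bp in replicate 2. It had peaks of 1984 and 1555 bp at E14.5, of 2071 and 2300 bp in enterocytes and of 1942 and 2363 bp in ISC. Summit E, between 137933160 and 137933926, had no peak at E12.5 and peaks of 634 and 284 bp at E14.5. There the peaks were 2183 and 2278 bp long in enterocytes and 1279 and 2132 bp in ISC. Positions C and E were thus held by all libraries from E14.5 on.

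**Figure D3:**
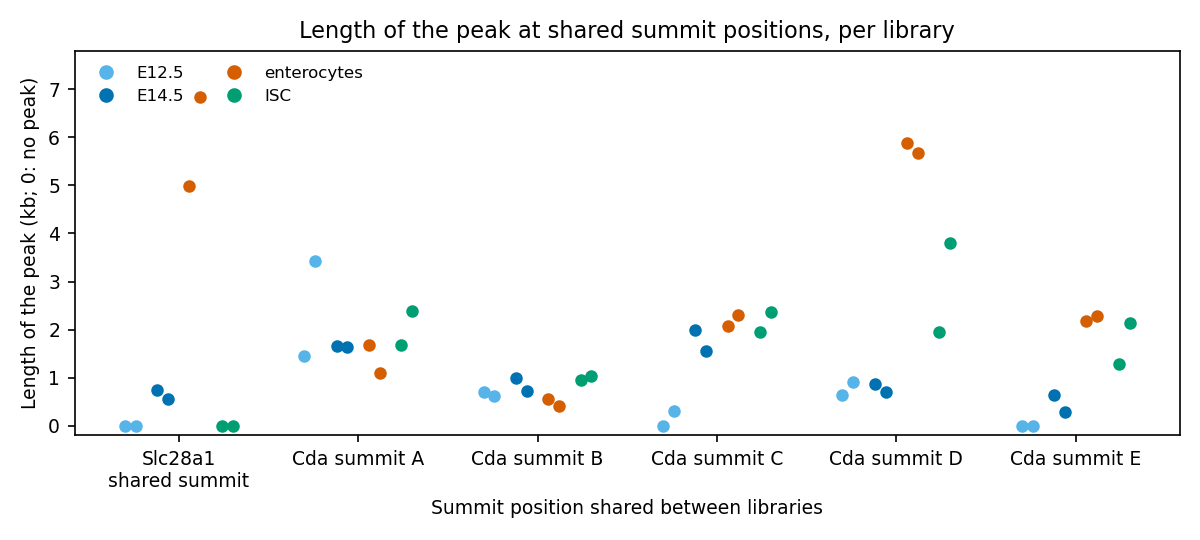
Length of the H3K27ac peak (kb, y axis) at the summit shared by E14.5 and enterocytes at Slc28a1 and at Cda summits A to E (x axis); each point is a library and 0 means no peak. At Cda summit D the enterocyte peaks (5873 and 5677 bp) exceed all others, whereas at summit B all peaks are between 416 and 1035 bp.

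Between summits C and D lay the stretch chr4:137900001-137920000, where no embryonic library had a peak. It was covered over 16.0 and 14.0 kb in enterocytes, against 5.62 and 8.87 kb in ISC. Summits between 137900819 and 137901263, and between 137919258 and 137919317, were shared by both libraries of both adult groups. Summits between 137913993 and 137914076, and between 137914868 and 137914939, were in both enterocyte libraries alone. These last 2 positions depend on how summits are joined, here at most 500 bp apart, and were no longer separate when summits up to 1000 bp apart were joined. A position between 137911937 and 137912015 had peaks of 4324 and 3859 bp in enterocytes, no peak in ISC replicate 1 and a peak of 369 bp in ISC replicate 2.

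Most of the ISC peaks at Cda lay within the enterocyte ones. Of the 16595 bp covered in both ISC libraries, 83.1% were covered in both enterocyte libraries. Of the 24816 bp covered in both enterocyte libraries, 55.6% were covered in both ISC libraries, 27.1% in neither ISC library and 79.3% in no embryonic library. The embryonic peaks overlapped those of enterocytes to different degrees at the 2 stages. Of the bases covered in both libraries of a stage, 81.8% at E14.5 were also in both enterocyte libraries, while 45.3% at E12.5 were in neither. Near the lower edge, summits between 137876646 and 137877248 occurred in both E12.5 libraries and in E14.5 replicate 1, and in no adult library.

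**Figure D4:**
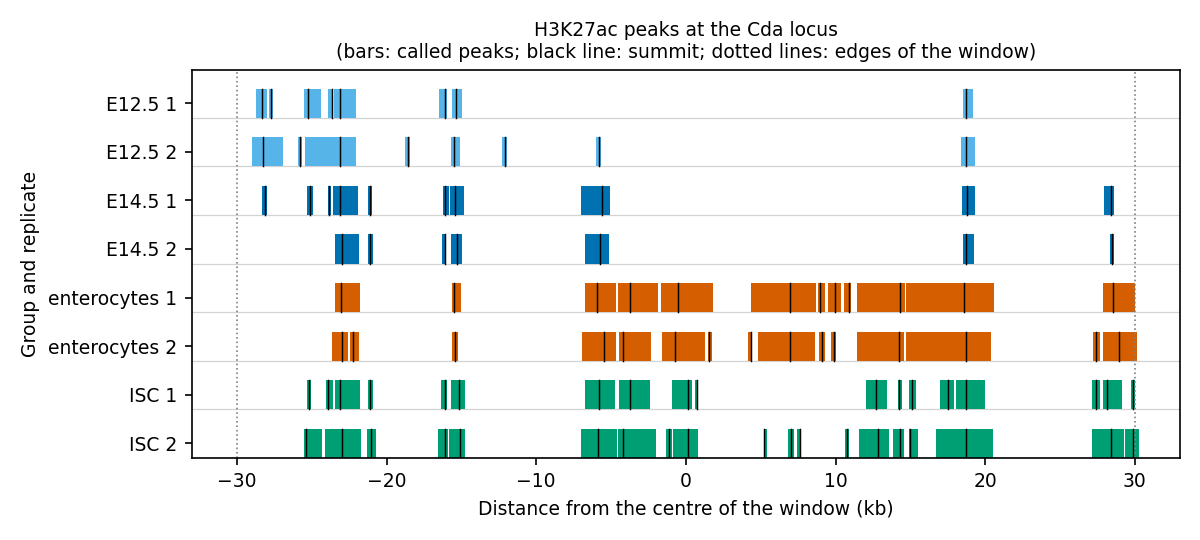
H3K27ac peaks of each library (rows) at the Cda window by distance from its centre (kb, x axis); bars span the peaks, black lines are summits and dotted lines are the window edges. The stretch bare in all 4 embryonic rows holds long peaks in enterocytes and shorter ones in ISC.

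The difference between enterocytes and ISC at Cda was tested in the same limma fit, in which 13.5% of all windows were called higher in enterocytes and 24.6% lower. Of the 4 windows meeting the Cda locus, the one for which the locus was chosen is described without a test, since its covered lengths in both cell types were then known. Of the other 3, 1 was called higher and 1 lower, and 3 windows are too few to read against those shares. The lower one lies mostly outside the Cda window. On the chosen window, chr4:137900001-137920000, the mean was 15.0 ± 1.45 kb in enterocytes and 7.25 ± 2.29 kb in ISC (SD, n = 2 each), and the libraries of the groups did not overlap.

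In the other windows of Cda the size of the difference moved with the scaling. On chr4:137920001-137940000, peaks covered 7.78 and 8.16 kb in enterocytes, against 5.36 and 7.88 kb in ISC, so the groups overlapped before scaling. The scaled log2 difference was 0.92 ± 0.11 (SE, adjusted p = 0.00182), and 0.27 without scaling (adjusted p = 0.448). On chr4:137860001-137880000, which reaches past the lower edge, peaks covered 0.903 and 1.17 kb in enterocytes, against 2.21 and 3.87 kb in ISC. The log2 difference was -0.65 ± 0.15 (SE, adjusted p = 0.0177), a call lost without ISC replicate 2 (adjusted p = 0.0954), without enterocytes replicate 1 (adjusted p = 0.0750) and with peaks of −log10 q of at least 10 alone (adjusted p = 0.212). Without scaling it was -1.17 (adjusted p = 0.0282). On chr4:137880001-137900000, which holds summits A, B and C, the means were 4.05 ± 0.0346 kb in enterocytes and 6.49 ± 1.32 kb in ISC (SD, n = 2 each), with a log2 difference of 0.02 (adjusted p = 1) and, without scaling, of -0.61 (adjusted p = 0.0552). Neither passed the test. The scaling matters because the unscaled median over all windows was -0.41 in log2, and because 35.4% of all calls were higher in enterocytes with scaling and 13.3% without.

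Between the embryonic stages, the lower edge of Cda had the single called unshifted window of this locus. On chr4:137860001-137880000, peaks covered 2.50 and 1.78 kb at E14.5, against 3.18 and 4.69 kb at E12.5. Most of this stretch lies below the Cda window, and all of the length of E14.5 replicate 2 on it was outside. The log2 difference was -0.95 ± 0.15 (SE, adjusted p = 0.00646), and -0.74 without scaling (adjusted p = 0.172). For this comparison, 55.1% of all calls were higher at E14.5 with scaling and 62.9% without. The window with summits D and E had 1.501 and 0.985 kb at E14.5, against 0.649 and 0.907 kb at E12.5, and did not pass the test (log2 difference 0.27, adjusted p = 0.156). With the windows shifted by 10 kb, the stretch chr4:137890001-137910000, with summit C, was higher at E14.5 (log2 difference 1.49, adjusted p = 0.0149). That window reaches into the stretch chosen as bare in the embryo. Also higher was chr4:137930001-137950000 with summit E (0.83, adjusted p = 0.0235). At the lower edge, chr4:137870001-137890000 was lower (-0.8998, adjusted p = 0.00331). At Slc28a1, chr7:88250001-88270000 and chr7:88270001-88290000 were higher (adjusted p = 0.00253 and 0.000979). The other tested shifted windows of the loci did not pass. Genome-wide, the shifted grid gave 4330 windows higher and 3596 lower.

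Stretches covered in enterocytes and not in ISC were found inside the Slc28a1 window, while its flanks held embryonic peaks. On chr7:88200001-88220000 the embryonic libraries had 3.22 to 5.30 kb and no adult library had a peak. On chr7:88120001-88140000 all 8 libraries were covered, between 3.77 kb in E12.5 replicate 1 and 8.94 kb in enterocytes replicate 2. Around Cda, the flanking window chr4:137800001-137820000 had no peak in enterocytes, 1.23 and 2.56 kb in ISC and 2.32 to 3.49 kb in the embryo. No flanking window of either locus had peaks in both enterocyte libraries and in no ISC library. The Slc28a1 window was chosen for that pattern, so its contrast with the flanks follows from the choice. How common the pattern is over all windows was not counted.

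**Figure D5:**
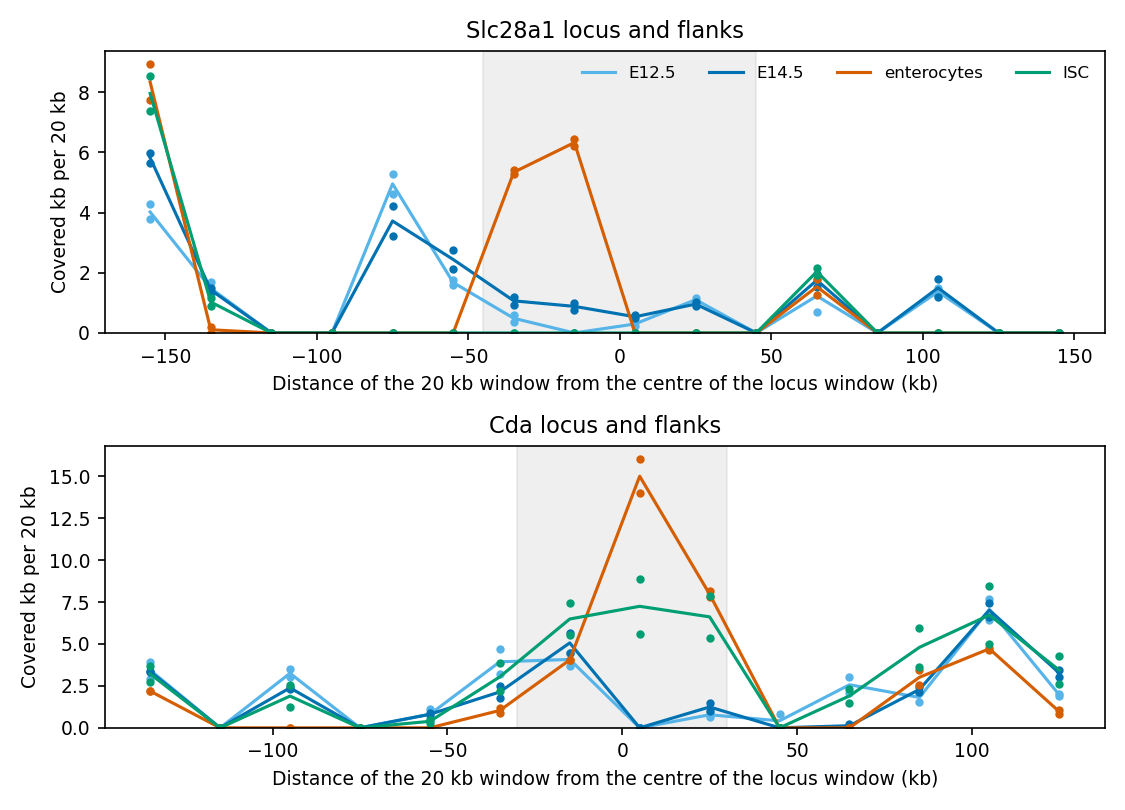
Length covered by H3K27ac peaks per 20 kb window (kb, y axis) by distance from the centre of the locus (kb, x axis), with lines for group means, points for libraries and the locus window shaded. By group means in the shaded areas, enterocytes are above every other group on 2 windows at Slc28a1 and, with 15.0 kb, on the bare embryonic stretch of Cda. They are also highest on chr4:137920001-137940000 (7.97 kb, against 6.62 kb in ISC), where the libraries overlapped.

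The windows whose covered lengths most resembled those of the loci were found by the mean absolute difference in scaled length over the 8 libraries, as a description. For Slc28a1 (chr7:88260001-88280000, with 6.45 and 6.22 kb in enterocytes) the nearest was chr4:139180001-139200000, at 0.231 kb. It had no peak at E12.5 or in ISC, 0.856 and 0.556 kb at E14.5, and 7.12 and 6.64 kb in enterocytes. Next were chr19:32120001-32140000 (0.366 kb), which had no E14.5 peak, and chr5:148680001-148700000 (0.377 kb). For Cda (chr4:137900001-137920000) the likeness was looser. The nearest windows were chr6:22280001-22300000 (1.38 kb), chr12:112660001-112680000 (1.54 kb) and chr12:78040001-78060000 (1.60 kb), and all 3 had peaks in at least 1 E14.5 library, where Cda had none.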

How the data were processed

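H3K27ac ChIP-seq peak lists of 8 libraries were analysed. The build was mm9 and the tools named were MACS2, SAMtools 1.2, Bowtie 1.1.2 and bcl2fastq 1.8.4, per the submitters' processing notes. Per the file headers, the authors called peaks with MACS 2.1.0.20140616 for each library against its own input, with 1 tag kept per position and the larger dataset scaled to the smaller. The deposited pileup signal at the summit, the fold enrichment ratio and the −log10 p and −log10 q values are scores per peak from the authors, used only to describe, rank or filter peaks within a list. Read depth per region was not used here, so precision rests on 2 libraries per group. Other filters are not given in the sources used here. All 8 input libraries enter only through the peak calls.

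From the positions, covered length per library was summed over each locus and over 20 kb windows. Summits at most 500 bp apart were joined into positions. Windows were kept where 2 or more libraries had a peak. Covered length was scaled to equal library totals and limma 3.58.1 was run on log2(bp + 500) (R 4.3.3; 4 group means, 4 residual degrees of freedom, trend and robust). Benjamini-Hochberg adjusted p under 0.05 was called. The fit was tested on simulated data. The p-values rest on the spread among these libraries alone. Every peak of both loci was in scope. For likeness, the window of each locus with the greatest enterocyte length was set against windows at least 100 kb away and the nearest 3 were named. The members, windows and lists were chosen with earlier results of these data known. Alternatives are given in the closing section. The gene table is on GRCm38.p6 and not on mm9, so the planned list of other nucleoside genes and the cell type markers were not analysed here.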

Additional observations from a re-analysis of the deposited data

How the results depend on the processing

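Covered length at Slc28a1 with −log10 q of at least 10 alone averaged 0.754 kb (E12.5), 0.902 kb (E14.5) and 10.7 kb (enterocytes). With equal numbers of peaks per library these means were 1.35, 2.78 and 11.5 kb. Windows widened by 20 kb on each side gave means of 5.89 kb (E14.5) and 3.57 kb (E12.5) for Slc28a1, and of 8.999 kb (E14.5) and 9.90 kb (E12.5) for Cda. Scaling gave enterocytes 16.2 kb at Slc28a1 and 37.3 kb at Cda. ISC stayed at 0 kb at Slc28a1 under all of these settings, of which only the widened window could have changed it. Genome-wide, E14.5 against E12.5 gave 2474 windows higher and 1556 lower with −log10 q of at least 10, and 2094 lower without scaling. Leaving out 1 library gave 2746 to 4337 higher and 2465 to 3413 lower. Enterocytes against ISC gave 1552 higher without scaling, 2732 with −log10 q of at least 10, and 3130 to 3639 without 1 library. With the replicate block, 4032 were higher and 3196 lower for E14.5 against E12.5, and 3850 and 7172 for enterocytes against ISC. The block changed no call at either locus. Replicate differences of the groups correlated weakly with each other (-0.176 to 0.173), and the libraries were not paired in the main fit. Whether same-numbered libraries shared a preparation was not tested. Each of the 5 calls reported for unshifted locus windows was lost under at least 1 alternative, 3 other windows gained a call, and no call reversed. Joining summits up to 250 or 1000 bp apart, chosen after seeing the data, gave 17 and 11 positions at Slc28a1 and 36 and 18 at Cda, beside 16 and 30. The causes of these shifts were not tested. Peak calls limit the depth of all values: a mark below the threshold is not seen.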

Other observations

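ISC had a long stretch without H3K27ac peaks around Slc28a1. It ran over 216 kb in each library, chr7:88141167-88357282 in replicate 1 and chr7:88141162-88357208 in replicate 2. The median distance between neighbouring ISC peaks was 3.83 and 4.31 kb, and 4.61% and 3.84% of the gaps in these lists were longer than this one. Those longer gaps together spanned 1716 and 1609 Mb, so by length such stretches are common. The locus was chosen because ISC had no peak in its window, so the gap is described only.

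At Cda, some ISC summits lay inside longer enterocyte peaks whose own summits were elsewhere. ISC summits at 137905140 and 137905160, and at 137917725 and 137917819, had no enterocyte summit within 500 bp. These are values of 2 libraries per group, and the difference in summit position was not tested.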
